A study of Mus musculus with 16 samples.

Results

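The siRNA labelled BICC1_3, designed against Bicc1, was compared with a scrambled siRNA (SC) in mouse primary calvarial osteoblasts, cells of the skull vault that make bone. The comparison rests on 8 of the 16 arrays of the study, the 4 whose titles name BICC1_3 and the 4 whose titles name SC. The cells of both groups were isolated by collagenase from C57BL6/J neonates of 3 to 9 days and mixed gender, with no genetic alteration named in the labels. They were plated at 150000 cells per well and transfected with the lipid reagent Lipofectamine about a day later, and RNA was extracted 48 hours after transfection. Every group, SC included, therefore received an siRNA and the transfection reagent, and no untransfected cells are among the groups. The other 8 arrays hold BICC1_1 and BICC1_2, siRNAs to the same transcript. Nothing in the labels ties a replicate to a culture or a pool of pups of its own. The p-values here thus rest on the variation from array to array, part or all of which may be technical.

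A small interfering RNA is loaded into an Argonaute protein and guides it to transcripts of matching sequence, which are cut. The short seed at the guide's 5′ end can also pair with other transcripts and lower them modestly. For this reason several siRNAs to 1 gene are usually compared. Bicc1 encodes an RNA-binding protein with KH domains and a SAM domain that regulates the stability and translation of bound mRNAs and is best known from cystic kidney disease. In bone, osteoblasts read BMP and Wnt signals and lay down a collagen matrix that mineralises.

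Bicc1 itself, read by 1 probe, did not differ detectably between the groups. Its normalised log2 intensity was 10.70, 10.39, 10.39 and 10.33 on the arrays labelled BICC1_3, against 10.59, 10.66, 10.59 and 10.38 on the SC arrays. Replicate 1 of BICC1_3 lay above every SC array and replicate 4 below every SC array, and the groups overlapped. The mean was 93.3% of SC (95% interval 77.1 to 113%), a log2 difference of -0.10 with a limma adjusted p of 0.776. The exact two-sided permutation p over the 8 arrays was 0.429, where 0.0286 is the smallest it can give. Without BICC1_3 replicate 1 the mean was 88.2% of SC (72.8 to 107%, exact permutation p = 0.114). A marked fall of the targeted transcript was thus not seen, although the intervals do not exclude a modest one. Every direction given here for the arrays labelled BICC1_3 rests on the titles.

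The other 2 siRNAs lowered the same probe. Bicc1 averaged 10.45 with BICC1_3, against 9.66 with BICC1_1 and 8.97 with BICC1_2, and each BICC1_3 array lay above each of those 8 arrays. The difference from the mean of BICC1_1 and BICC1_2, which uses no SC array, was 1.14 on the log2 scale (limma adjusted p = 0.00022).

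The 8 arrays detected 11990 to 12863 probes each, with a median intensity of 84.8 to 111.3. One of these 8 arrays stood apart. BICC1_3 replicate 1 correlated with the other 7 at 0.969 to 0.977, while those 7 correlated with each other at 0.994 to 0.997. On replicate 1, 120 genes lay more than 1 log2 above the SC mean and 447 more than 1 log2 below it, while BICC1_3 replicates 2 to 4 had at most 2 such genes in either direction. With genes split by genomic span into 5 bins of like size, the bin of shortest genes had a median difference from SC of -0.25 on replicate 1 and the bin of longest genes 0.09. On replicates 2 to 4 the medians of all 5 bins lay between -0.03 and 0.03. The comparison with SC was therefore also fitted without this array, and its calls, the counts and medians of the main gene lists and the differences of most genes described are given both ways. Its part in the results was otherwise not tested.

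**Figure D1:**
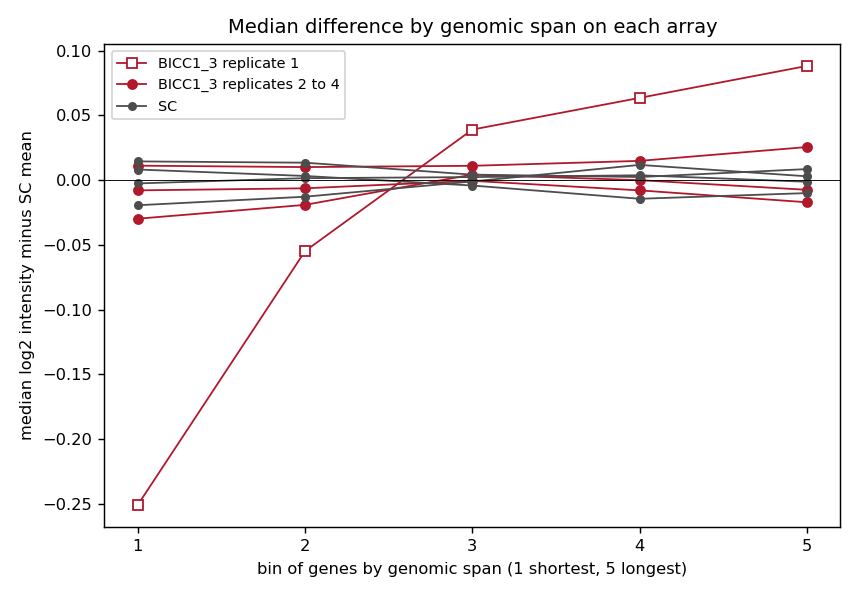
Median log2 intensity minus the SC mean on the vertical axis, for genes split into 5 bins by genomic span on the horizontal axis, with a line for each BICC1_3 array (red, replicate 1 as open squares) and each SC array (grey). The line of BICC1_3 replicate 1 runs from -0.25 in the bin of shortest genes to 0.09 in the bin of longest, and the other 7 lines stay between -0.03 and 0.03.

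Across the genes, 1 passed the test. Of 9560 genes or unnamed probes tested, limma's moderated test with Benjamini-Hochberg adjustment at 0.05 called Hsd3b2, which rose (0.0105% of those tested), and none that fell. Unadjusted p fell under 0.05 for 883, 476 of them higher and 407 lower in BICC1_3, which is 9.24% of those tested and compares with 478 expected if nothing differed. The genes share the same arrays, so 478 is no firm standard for this count. The count also moved with the processing. It was 481 when the arrays were scaled to a common median, and up to 1430 with no detection filter, where more genes were tested. Without BICC1_3 replicate 1, Hsd3b2 was again the 1 call (0.0105%), and 698 genes, 7.3%, had an unadjusted p under 0.05. The median standard error of a log2 difference was 0.108 with replicate 1 and 0.101 without it. The count of calls moved with single arrays. It was 12 without BICC1_3 replicate 2, 11 of them higher and 1, Bmp4, lower, and 0 without BICC1_3 replicate 4 or SC replicate 1, 2 or 4, with 903, 686, 699 and 672 genes under an unadjusted p of 0.05 in those fits.

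Hsd3b2 encodes a hydroxysteroid dehydrogenase of the family that turns pregnenolone into progesterone. Its log2 intensity was 11.17, 11.18, 11.12 and 11.20 on the BICC1_3 arrays, against 10.64, 10.53, 10.79 and 10.61 on the SC arrays. All 4 BICC1_3 arrays, replicate 1 included, lay within a narrow band above the highest SC array. The gene rose 1.44-fold, by 0.53 ± 0.07 on the log2 scale (SE, n = 4 against 4, adjusted p = 0.0128), and without replicate 1 by 0.53 (adjusted p = 0.0315). The Hsd3b genes of the mouse are close copies of each other, and which of them a probe reads is uncertain. The array has 6 probes named Hsd3b2, of which the 1 tested was detected and the other 5 were detected on none of the arrays, with mean log2 intensities of 4.52 to 4.93 in both groups. It rose also against the mean of BICC1_1 and BICC1_2, by 0.44 (adjusted p = 0.00612). Hsd3b2 averaged 11.17 with BICC1_3, against 10.58 with BICC1_1, 10.87 with BICC1_2 and 10.64 with SC.

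The other named steroid enzymes did not pass. Of 13 genes tested for steroid hormone synthesis, 6 lay above 0 and 7 below, with a median log2 difference of -0.01, against -0.01 for all genes tested. Without replicate 1, 8 lay above 0 and 5 below, with a median of 0.04. Hsd17b7, which acts in estradiol and in cholesterol synthesis, had 11.88, 11.96, 11.82 and 11.88 on the BICC1_3 arrays, against 11.74, 11.65, 11.79 and 11.77 on the SC arrays. These groups did not overlap, but the difference of 0.14 had an adjusted p of 0.492 (0.15 without replicate 1). Tspo, a cholesterol-binding protein of the outer mitochondrial membrane, differed by -0.22 with BICC1_3 replicate 1 and by -0.02 without it.

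The upstream sequence of Hsd3b2 and of Bmp4 is shown because these genes differed both in the ranking against SC and in the test against the other siRNAs. Each stretch is the 250 bases before the gene's start, read 5′ to 3′ on the gene's own strand, from RefSeq promoter windows of assembly GRCm38.p6. Both genes lie on the minus strand, Hsd3b2 at chr3:98724544-98724793 and Bmp4 at chr14:46390670-46390919. Capitals mark matches on either strand to any of 4 short motifs of promoters. The GC box was searched as GGGCGG. The TATA box was searched as TATAAA. The CCAAT box was searched by the letters of its name. The E-box was searched as CANNTG, where N is any base.
Hsd3b2: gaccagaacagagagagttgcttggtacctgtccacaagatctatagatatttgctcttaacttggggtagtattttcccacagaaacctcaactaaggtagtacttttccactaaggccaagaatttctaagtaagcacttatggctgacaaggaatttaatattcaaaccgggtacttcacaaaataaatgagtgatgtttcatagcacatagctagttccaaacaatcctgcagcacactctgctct
Bmp4: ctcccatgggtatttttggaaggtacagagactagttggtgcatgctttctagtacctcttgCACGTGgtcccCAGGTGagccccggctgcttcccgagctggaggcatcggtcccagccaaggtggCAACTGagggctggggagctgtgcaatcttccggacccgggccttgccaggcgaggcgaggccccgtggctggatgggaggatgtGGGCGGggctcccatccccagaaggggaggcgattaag
The Hsd3b2 stretch holds none of these letters. The Bmp4 stretch holds 1 GC box, starting 38 bases before the gene, and 3 E-boxes, starting 188, 177 and 123 bases before it, with no overlap between them. Of 32851 windows of the same length, 32.7% hold a GC box, 12.4% a TATA box, 33.8% a CCAAT box and 66.2% an E-box. These matches describe the letters and are no evidence of binding.

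Genes whose 4 BICC1_3 arrays lay wholly above or wholly below the 4 SC arrays give a second view, with no claim that they passed the test. There were 293 on the higher side, 3.06% of those tested, and 337 on the lower side, 3.53%, or 6.59% on either side. Without replicate 1 these were 514 (5.38%) and 585 (6.12%), a wider count because 3 arrays are easier to separate than 4. The sizes were small, with a median absolute log2 difference of 0.22 for the higher and 0.26 for the lower genes. Only 3 genes in all differed by more than 1 log2, Cavin1 (1.20), S100a8 (-1.04) and Myl1 (-1.15), and the BICC1_3 and SC values of each overlapped. No gene did so without replicate 1.

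Among the separated genes detected throughout the higher group, the 10 of lowest unadjusted p on the higher side were Hsd3b2, Zdhhc18, Setd2, Cast, Usp9x, Kpna1, Man2a2, Cap1, Fhl3 and Vcan. Their log2 differences were 0.35 to 0.83, and the adjusted p of the 9 besides Hsd3b2 reached 0.157 at most. Of these 10, 7 had an SC mean under 6.5, near the bottom of the scale, and 8 were again among the 10 of lowest p without replicate 1. Usp9x, a deubiquitinating enzyme, had 7.32, 6.43, 6.67 and 6.64 on the BICC1_3 arrays, against 6.06, 5.74, 5.85 and 6.10 on the SC arrays. Replicate 1 was the highest, and the difference was 0.83 with it and 0.64 without it (adjusted p = 0.099 with it).

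Kpna1 and Cap1 were the separated higher genes of this set with a strong signal beside Hsd3b2. Kpna1, an importin that carries proteins into the nucleus, had 10.20, 10.08, 10.03 and 10.17 on the BICC1_3 arrays, against 9.69, 9.76, 9.77 and 9.86 on the SC arrays. All 4 BICC1_3 values sat close together above SC, and the difference was 0.35 ± 0.07 (SE, n = 4 against 4, limma adjusted p = 0.102) and 0.32 without replicate 1. Cap1, which recycles actin monomers, had 12.58, 12.16, 12.14 and 12.22 on the BICC1_3 arrays, against 11.83, 11.87, 11.79 and 11.96 on the SC arrays. Replicate 1 lay above the rest here, and the difference was 0.41 with it and 0.31 without it.

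The dimmer higher genes need a bound or a second probe. Zdhhc18, a protein palmitoyltransferase, and Setd2, a histone methyltransferase of transcribed gene bodies, were detected on 4 BICC1_3 arrays and on 0 SC arrays. Each mean was at least 1.26-fold higher in BICC1_3. For this bound, an SC array was taken at the higher of the probe's own value and the lowest value among that array's detected probes. The bound carries no sampling error, and neither gene passed limma's test (adjusted p = 0.0766 for Zdhhc18 and 0.0803 for Setd2). Cast, which encodes the calpain inhibitor calpastatin, differed by 0.72 (0.61 without replicate 1) and Fhl3, a LIM-domain protein of the cytoskeleton and nucleus, also by 0.72 (0.63). Man2a2, a Golgi mannosidase that trims N-glycans, differed by 0.64 on the probe tested and by 0.57 on its other kept probe, and by 0.58 and 0.50 without replicate 1. Vcan, the matrix proteoglycan versican, had 7.57, 6.83, 7.20 and 6.94 on the BICC1_3 arrays, against 6.42, 6.62, 6.11 and 6.43 on the SC arrays, a difference of 0.74 (0.59 without replicate 1). Leaving out replicate 1 brought Srrm2, a splicing factor, into the 10 higher genes with a difference of 0.38, and its 4 kept probes ranged from 0.00 to 0.81 with all 4 arrays. Neurog2, a proneural transcription factor, entered too, but was detected on 0 of the SC arrays and on 3 of the BICC1_3 arrays, with no fold above the detection limit.

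**Figure D2:**
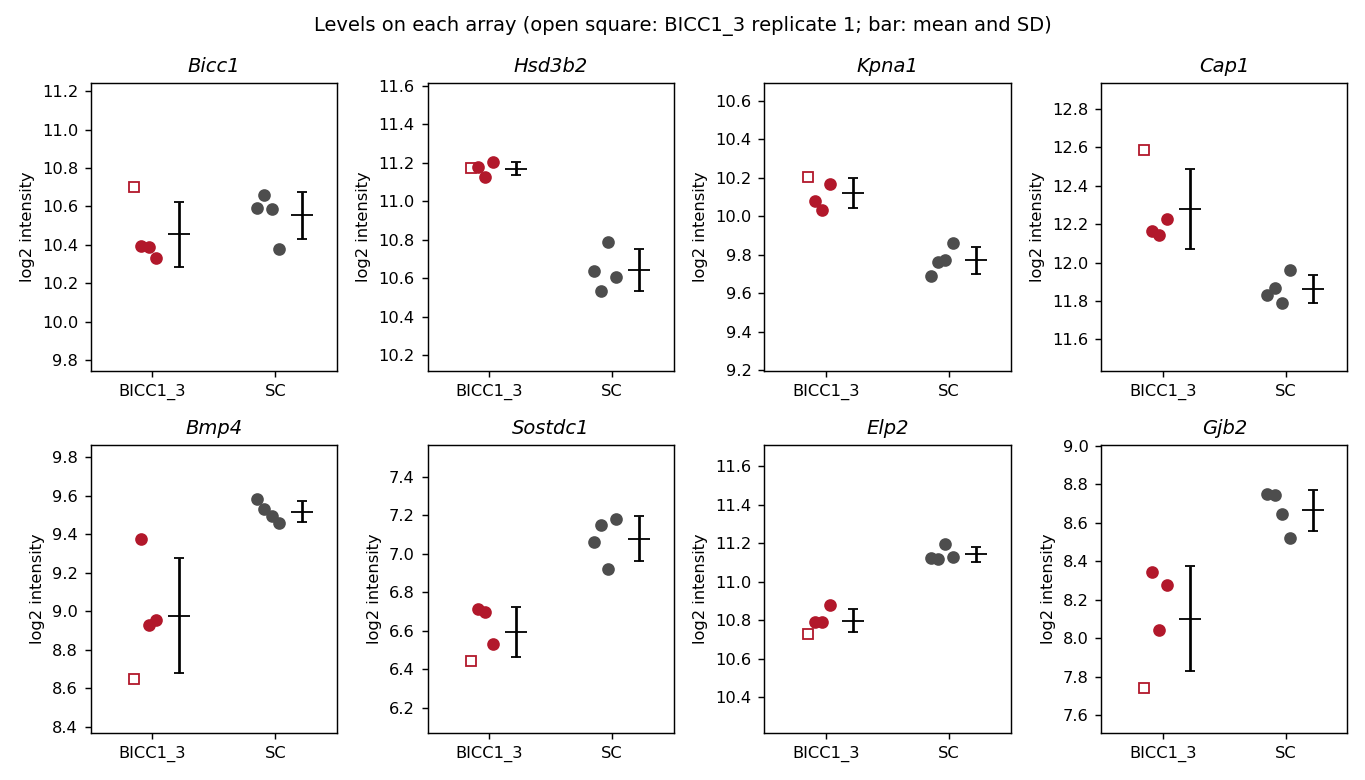
Normalised log2 intensity on the vertical axis for 8 genes on each BICC1_3 array (red, replicate 1 as an open square) and each SC array (grey), with the mean and SD beside the points. All panels span the same log2 range. The Bicc1 values overlap, Hsd3b2, Kpna1 and Cap1 lie above SC on every BICC1_3 array, and Bmp4, Sostdc1, Elp2 and Gjb2 lie below it.

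On the lower side the 10 genes were Sostdc1, Elp2, Bmp4, Gjb2, Dazap1, Nkd2, Muc13, Samhd1, Zfat and Esam. Their differences had sizes of 0.31 to 0.57 on the log2 scale with adjusted p of 0.11 to 0.295, and 6 were again in the 10 without replicate 1. Bmp4, a secreted ligand that drives bone formation, had 8.65, 9.38, 8.93 and 8.96 on the BICC1_3 arrays, against 9.59, 9.53, 9.49 and 9.46 on the SC arrays. The SC values were tight and the BICC1_3 values spread below them, with replicate 1 the lowest and replicate 2 close to SC. The mean was 68.8% of SC, a difference of -0.54 (limma adjusted p = 0.155), and -0.43 without replicate 1 (adjusted p = 0.276).

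Sostdc1, a secreted protein that binds BMP ligands and a Wnt co-receptor, had 6.44, 6.71, 6.70 and 6.53 on the BICC1_3 arrays, against 7.06, 7.15, 6.92 and 7.18 on the SC arrays. No value crossed between the groups, and the mean was 71.5% of SC (difference -0.48, limma adjusted p = 0.11; without replicate 1 -0.43). Gjb2, a gap junction protein, differed by -0.56, and its other kept probe by -0.60 (-0.44 and -0.52 without replicate 1). Elp2, a subunit of the Elongator complex that modifies transfer RNA, had 10.73, 10.79, 10.79 and 10.88 on the BICC1_3 arrays, against 11.12, 11.12, 11.20 and 11.13 on the SC arrays. Both groups were tight, the difference was -0.34 (-0.32 without replicate 1), and the other kept probe gave -0.31. Dazap1, an RNA-binding protein, differed by -0.34 on the probe tested and by -0.13 on a dimmer one (-0.29 and 0.02 without replicate 1).

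Samhd1, which hydrolyses deoxynucleotides, had 8.91, 9.02, 9.18 and 9.28 on the BICC1_3 arrays, against 9.33, 9.49, 9.38 and 9.43 on the SC arrays. It was lowest on replicate 1 and differed by -0.31, or -0.24 without that array. With BICC1_1 and with BICC1_2 the gene also differed from SC by -0.27, so its lower level was not particular to BICC1_3. Zfat, a zinc-finger protein, and Muc13, a mucin, were dim, each detected on 1 BICC1_3 array and on 4 SC arrays, with differences of -0.50 and -0.42 (-0.48 and -0.47 without replicate 1). Without replicate 1 the lower set gained the complement gene C2 (-0.40), Lrrc1 (-0.29), Spata2l (-0.46) and Klc1, a kinesin light chain (-0.30). The 5 kept probes of Klc1 disagreed in sign, from -0.30 to 0.19 without that array.

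**Figure D3:**
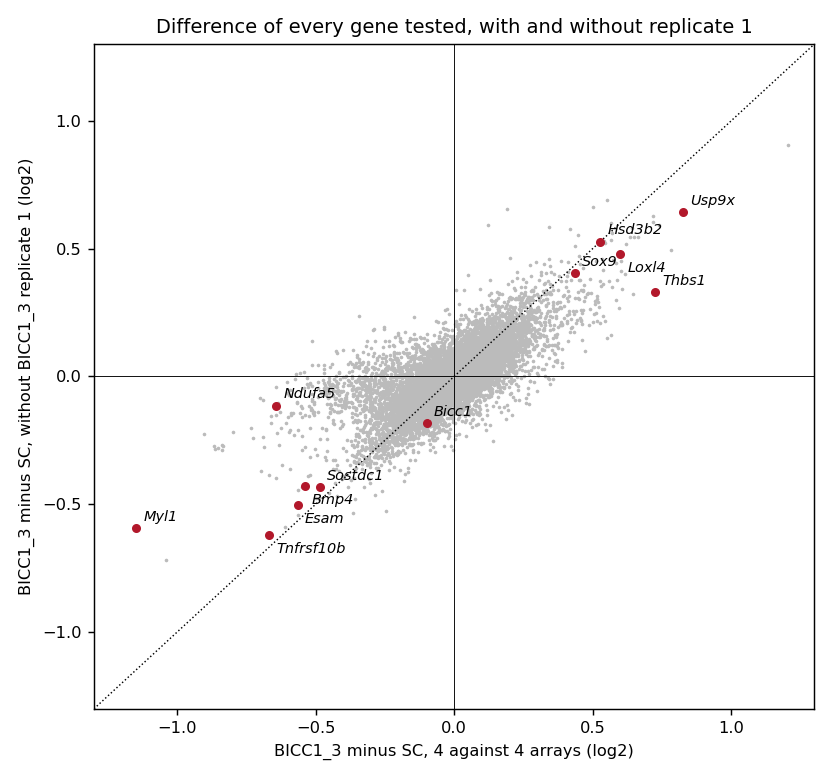
Log2 difference of BICC1_3 minus SC for each of the 9560 genes or unnamed probes tested, with all 4 BICC1_3 arrays on the horizontal axis and without BICC1_3 replicate 1 on the vertical axis, and named genes in red. Hsd3b2 lies on the dotted line of equal values at 0.53 on both axes, while Ndufa5 lies at -0.64 with replicate 1 and -0.11 without it.

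BMP genes were split about evenly between the 2 directions. Of 27 tested, 0 passed limma's test and 4 had an unadjusted p under 0.05, beside 9.24% of all genes. In sign, 13 lay above 0 and 14 below, with a median of -0.03 (all genes tested: -0.01), and without replicate 1 14 and 13, with a median of 0.00. Bmp4 and Sostdc1 were separated on the lower side and 0 members on the higher side, beside 3.53% and 3.06% of all genes. The target genes Id1 and Id3, inhibitors of differentiation that BMP signals induce, were lowest on replicate 1. Id3 had 9.34, 10.08, 10.10 and 9.90 on the BICC1_3 arrays, against 10.09, 9.92, 10.51 and 10.30 on the SC arrays. Replicate 1 was the lowest and the rest overlapped SC, and the difference was -0.35 with it and -0.18 without it. Id1 differed by -0.23 and -0.05. Receptors stayed within 0.24 of SC, the largest being Bmpr2 (0.24, and 0.10 without replicate 1). Gdf10, a BMP-family ligand, differed by 0.28 (0.33 without replicate 1) and overlapped SC.

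Wnt genes held 1 separated member, on the lower side, where 3.53% of all genes are. Of 24 tested, 0 passed limma's test and 3 had an unadjusted p under 0.05, beside 9.24% of all genes. In sign, 8 lay above 0 and 16 below with and without replicate 1, with medians of -0.02 and -0.03. Nkd2, which restrains Wnt signalling by binding Dishevelled, had 8.03, 7.96, 7.92 and 7.80 on the BICC1_3 arrays, against 8.36, 8.50, 8.19 and 8.15 on the SC arrays. No value crossed between the groups, and the difference was -0.37 (limma adjusted p = 0.225) and -0.41 without replicate 1. Axin2, a direct Wnt target, differed by -0.24 and by -0.13 without replicate 1. The co-receptor Lrp5 differed by 0.21 and 0.31, and overlapped SC with replicate 1 included.

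The label of the cells was checked against osteoblast markers. Sp7, a transcription factor of the lineage, averaged 11.28 in BICC1_3 and 11.41 in SC, and Col1a1, the main bone collagen, 14.12 and 13.93. Alpl, the phosphatase of early mineralisation, was dim, at 6.00 and 5.96. Bglap, Ibsp and Dmp1, markers of mature osteoblasts and osteocytes, were detected on none of the 8 arrays, and Runx2 and Spp1 are not analysed here. Phex, another late marker, was dim, at 5.46 in BICC1_3 and 5.67 in SC, with 6 of the 8 arrays above detection.

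Osteoblast and matrix genes showed no shared direction. Of 12 osteoblast and mineralisation genes 6 lay above 0 and 6 below, and of 28 collagen and matrix genes 18 lay above and 10 below, with medians of 0.01 and 0.02. Limma's test called 0 in either list, and 2 in each had an unadjusted p under 0.05, beside 9.24% of all genes. Without replicate 1, 5 of 12 and 12 of 28 lay above 0, with medians of -0.06 and -0.02. Cdh11, an osteoblast cadherin, had 7.09, 6.79, 7.14 and 6.93 on the BICC1_3 arrays, against 6.53, 6.71, 6.52 and 6.68 on the SC arrays. The groups did not overlap, the difference was 0.37 (limma adjusted p = 0.414; without replicate 1 0.34), and a second kept probe gave 0.77 (0.65). Loxl4, a collagen cross-linking oxidase, had 7.08, 6.37, 6.55 and 6.91 on the BICC1_3 arrays, against 6.13, 6.19, 6.10 and 6.11 on the SC arrays. It was separated as well, at 0.60 with an adjusted p of 0.157, and at 0.48 without replicate 1. Thbs1, a matrix glycoprotein, and Mgp, an inhibitor of mineralisation, followed replicate 1, with differences of 0.73 and -0.44 with it and 0.33 and -0.06 without it.

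Cartilage genes lay on both sides of SC. Sox9, the transcription factor that drives cartilage, had 8.37, 8.15, 8.25 and 8.34 on the BICC1_3 arrays, against 8.001, 7.76, 7.80 and 7.81 on the SC arrays. Col2a1, the cartilage collagen that Sox9 induces in chondrocytes, had 8.86, 8.62, 8.62 and 8.73 on the BICC1_3 arrays, against 9.06, 9.21, 9.00 and 9.07 on the SC arrays. Both were separated, Sox9 above SC by 0.44 (limma adjusted p = 0.225) and Col2a1 below it (-0.38, adjusted p = 0.335, and -0.45 on its second probe). Without replicate 1 these were 0.40, -0.43 and -0.50. Hapln1, a link protein of the cartilage matrix, was separated on the lower side too, at -0.24 and at -0.23 without that array. It was dim, detected on 2 BICC1_3 arrays and 4 SC arrays. The list thus held 1 gene separated higher and 2 lower, where 3.06% and 3.53% of all genes are. Of 5 chondrocyte genes 0 passed limma's test and 2, Sox9 and Col2a1, had an unadjusted p under 0.05, beside 9.24% of all genes. Acan, Col10a1, Comp and Matn1 were not above the detection filter, and the summed normalised intensity, on the linear scale, of the 4 defining markers tested was 760 to 892 in BICC1_3 and 836 to 914 in SC.

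Targets of p53, the transcription factor of the DNA damage response, lay mostly above SC, although limma's test called 0 of them. Of 19 tested, 8 had an unadjusted p under 0.05, 7 of them higher and 1 lower, beside 9.24% of all genes. In sign, 16 lay above 0 and 3 below, with a median difference of 0.14, against -0.01 for all genes tested and 48% of genes above 0. Of the 19, 6 were separated on the higher side and 1, Tnfrsf10b, on the lower side, where 3.06% and 3.53% of all genes are. The list median was 0.26, 0.11, 0.13 and 0.05 on the BICC1_3 arrays, against 0.02, 0.04, -0.03 and 0.01 on the SC arrays, each relative to the SC mean. Replicate 1 was the highest, and the lowest BICC1_3 array lay just above the highest SC array. Without replicate 1 the counts were again 16 and 3, and the median was 0.10. Again 6 were separated higher and 1 lower, where 5.38% and 6.12% of all genes are without that array. On the BICC1_1 arrays the list median was 0.05, -0.02, 0.22 and 0.08. It was 0.09, 0.07, 0.16 and 0.11 on the BICC1_2 arrays, all above the highest SC array. The position above SC was thus not particular to BICC1_3, and all these values share the SC reference.

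Cdkn1a, which encodes a cell-cycle inhibitor, had 13.70, 13.55, 13.54 and 13.55 on the BICC1_3 arrays, against 13.32, 13.47, 13.33 and 13.46 on the SC arrays. The difference was 0.19 (limma adjusted p = 0.484) and 0.15 without replicate 1, and the other 2 kept probes gave 0.09 and 0.25. Pmaip1, a pro-apoptotic protein, differed by 0.47 and 0.29 and Trp53inp1, a p53 cofactor, by 0.36 and 0.27, with and without replicate 1. Ei24 had 11.93, 11.79, 11.72 and 11.96 on the BICC1_3 arrays, against 11.59, 11.53, 11.50 and 11.64 on the SC arrays, a difference of 0.29 (adjusted p = 0.309) and of 0.26 without replicate 1. Zmat3 (0.31, without replicate 1 0.19) and Ccng1 (0.16, without it 0.10) were the other 2 separated members, and Mdm2, the ubiquitin ligase of p53, overlapped SC at 0.17 (0.10).

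Tnfrsf10b, a death receptor, went the other way on 1 probe only. That probe had 8.22, 8.22, 8.76 and 8.26 on the BICC1_3 arrays, against 9.11, 8.93, 9.15 and 8.94 on the SC arrays, a difference of -0.67 (limma adjusted p = 0.327) and of -0.62 without replicate 1. The other 3 kept probes of the gene gave 0.06 to 0.15, and 0.04 to 0.20 without it. The direction for Tnfrsf10b thus depends on the probe.

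**Figure D4:**
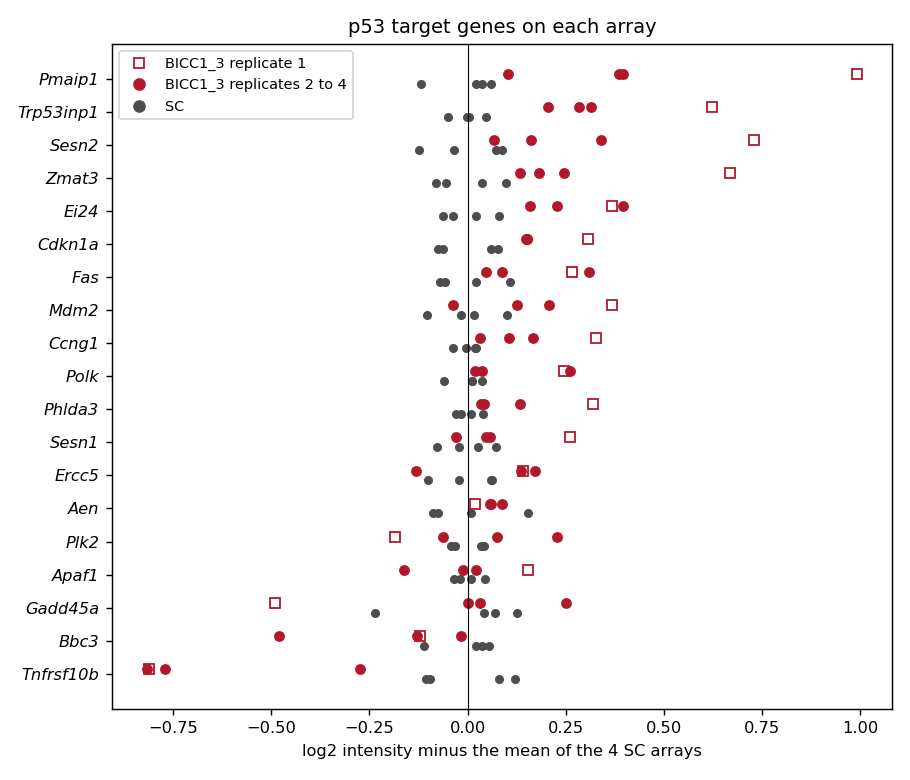
Log2 intensity minus the SC mean on the horizontal axis for the 19 p53 targets tested, 1 per row, on each BICC1_3 array (red, replicate 1 as an open square) and each SC array (grey). Replicate 1 is the farthest right for Pmaip1, Sesn2 and Zmat3, and the Tnfrsf10b probe tested lies to the left on every BICC1_3 array.

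Of 27 proliferation genes tested, 19 lay below 0 and 8 above, with a median of -0.08, and 20 and 7 without replicate 1, with a median of -0.07. On the lower side 3 were separated, Bub1b, Tyms and Cdc20, beside 3.53% of all genes. Limma's test called 0, and 3 had an unadjusted p under 0.05, 2 of them lower, beside 9.24% of all genes. Bub1b, a mitotic checkpoint kinase, had 7.59, 7.18, 7.71 and 7.67 on the BICC1_3 arrays, against 7.75, 7.82, 7.72 and 7.90 on the SC arrays. The list median was -0.16 on replicate 2 and -0.03 on each of the other 3 BICC1_3 arrays, so the shift was largest on 1 array. Ccne2, a cyclin of entry into S phase, differed by 0.46 and by 0.23 without replicate 1, and overlapped SC.

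Genes of the small RNA pathway, which an siRNA enters, and of the response to foreign RNA gave 0 calls in limma's test. On the probe tested for each gene, 0 had an unadjusted p under 0.05. Of 14 genes of the silencing machinery 12 lay above 0, with a median of 0.12, and without replicate 1 10 lay above 0 with a median of 0.03. Ago2, the slicing Argonaute, differed by 0.16 and by 0.00 without replicate 1, and Dicer1, which makes small RNAs, by 0.15 and -0.01. Ago3, another Argonaute, differed by 0.165 on the probe tested and by 0.08 without replicate 1. Its dimmer kept probes ILMN_2870191 and ILMN_1233354 gave 0.49 and 0.38, and 0.39 and 0.26 without it. Their unadjusted p was 0.00498 and 0.0203 in limma's fit of every kept probe, so the size for Ago3 depends on the probe. Of 19 RNA sensors and interferon-response genes 5 lay above 0 and 14 below, and 6 and 13 without replicate 1, with a median of -0.08 both ways. Isg15, a ubiquitin-like interferon product, had 6.05, 7.27, 7.01 and 7.20 on the BICC1_3 arrays, against 7.14, 8.34, 7.20 and 7.34 on the SC arrays. Single arrays, BICC1_3 replicate 1 and SC replicate 2, lay far from their groups. Eif2ak2, the kinase that double-stranded RNA activates, differed by -0.06 with replicate 1 and by 0.04 without it, and overlapped SC.

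Inflammatory genes were mixed, with 8 of 19 above 0 and 11 below, a median of -0.04, and 7 and 12 without replicate 1, with a median of -0.01. Limma's test called 0, and 3 had an unadjusted p under 0.05, beside 9.24% of all genes. Ptgs2, the inducible cyclooxygenase, had 8.54, 8.42, 8.46 and 8.45 on the BICC1_3 arrays, against 8.04, 8.05, 8.39 and 8.14 on the SC arrays. It was separated by 0.31 (limma adjusted p = 0.538; without replicate 1 0.29). Nfkbia and Nfkb2, an inhibitor and a subunit of NF-kB, were separated on the lower side, at -0.23 and -0.17, and at -0.14 and -0.19 without that array.

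Stress and metabolic lists had medians near that of all genes. The majority sign of the endoplasmic reticulum stress list and of the hypoxia list changed with replicate 1. The list of ATF4 targets and endoplasmic reticulum stress genes had 14 of 25 members above 0 with it (median 0.00) and 9 without it (-0.03). Within that list Ddit4, an inhibitor of mTOR signalling, was separated on the lower side at -0.27, and at -0.26 without it. Calr, the chaperone calreticulin, had 11.46, 10.18, 10.93 and 11.02 on the BICC1_3 arrays, against 10.26, 10.53, 10.20 and 10.20 on the SC arrays, so replicate 2 sat below SC and the other 3 above it. For glycolysis and hypoxia, 12 of 18 genes were above 0 with replicate 1 (median 0.04) and 8 without it (-0.03). Of 22 actin, smooth muscle and YAP targets 14 lay above 0 with it (0.05) and 11 without it (0.00). Of 17 sterol synthesis genes 7 lay above 0 with it (-0.01) and 6 without it (-0.02). Limma's test called 0 members of these 4 lists, where 7 of 82 had an unadjusted p under 0.05, beside 9.24% of all genes. Tagln, an actin-binding protein of smooth muscle, was separated by 0.24 (0.20 without replicate 1). Of 7 genes for Bicc1 and polycystin partners, 5 lay above 0 with replicate 1 and 4 without it, with a median of 0.03 both ways, and Pkd1, which encodes a polycystin, differed by 0.08.

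The low medians of the respiratory and ribosomal lists over 8 arrays were close to 0 without replicate 1. Complex I of the respiratory chain had 29 of 32 genes below 0 with a median of -0.39, and without replicate 1 20 of 32 with a median of -0.01. Its list median was -1.44 on replicate 1 and -0.02 to 0.03 on BICC1_3 replicates 2 to 4. Outside the comparison with SC, it was also low on BICC1_1 replicate 3 (-0.74) and BICC1_2 replicate 3 (-0.22). The median of complexes II to IV was -0.90 and -0.25 on those arrays, which enter the test against the other siRNAs. Ndufa5, a small subunit, had 10.07, 12.31, 12.14 and 12.11 on the BICC1_3 arrays, against 12.34, 12.28, 12.32 and 12.27 on the SC arrays. Cytoplasmic ribosomal proteins had 49 of 54 below 0 and a median of -0.23 (without replicate 1, 33 and -0.02). Mitochondrial ribosomal proteins had 62 of 70 below 0 and a median of -0.145 (31 and 0.01), complexes II to IV a median of -0.32 (-0.01) and ATP synthase -0.30 (-0.03). Limma's test called 0 members of these 5 lists, where 13 of 196 had an unadjusted p under 0.05, beside 9.24% of all genes, and Ndufv1, a large complex I subunit, differed by 0.11.

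**Figure D5:**
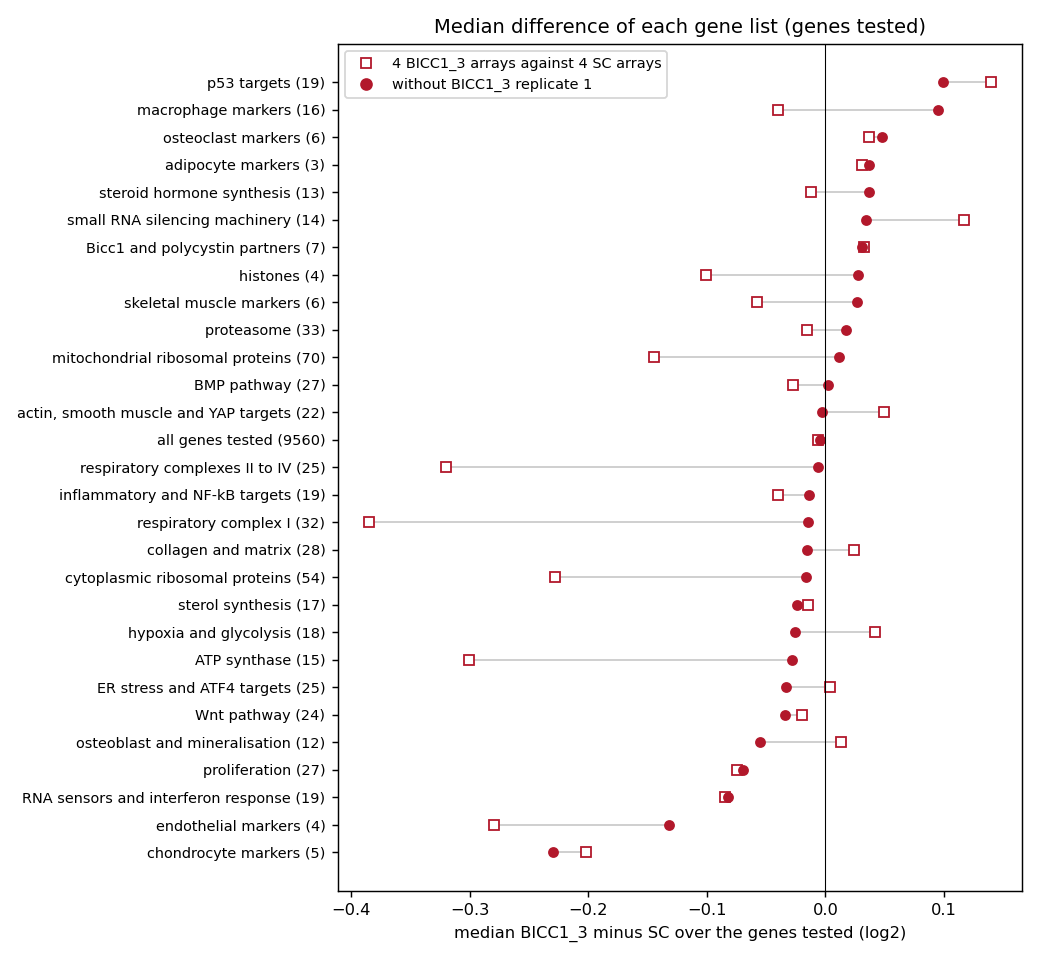
Median log2 difference of BICC1_3 minus SC on the horizontal axis for each of 28 gene lists and for all genes tested, with the number of genes tested in parentheses, over 4 BICC1_3 arrays (open squares) and without replicate 1 (filled circles). Respiratory and ribosomal medians lie between -0.39 and -0.145 with replicate 1 and between -0.03 and 0.01 without it, while the p53 target median is 0.14 and 0.10.

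Markers of other cell types in the cultures were followed beside these results. In bulk RNA, fewer cells of a type and less RNA per cell cannot be told apart. Of 4 endothelial markers tested 3 lay below 0, 2 of them with an unadjusted p under 0.05 (9.24% of all genes) and 0 past limma's test. The median was -0.28, and -0.13 without replicate 1. Esam, an endothelial adhesion molecule, had 6.73, 7.13, 7.05 and 6.77 on the BICC1_3 arrays, against 7.46, 7.19, 7.38 and 7.92 on the SC arrays. Ramp2, a receptor partner in vessels, was separated as well, where 3.53% of all genes were separated on the lower side. Esam differed by -0.56 and -0.50, and Ramp2 by -0.32 and -0.17, with and without replicate 1. The summed linear intensity of the 4 markers was 513 to 785 in BICC1_3, 679 to 785 without replicate 1, and 804 to 847 in SC. The defining markers Pecam1, Cdh5, Kdr, Tie1, Emcn and Vwf did not pass the detection filter, and the part of endothelial cells in the lower Esam was not tested.

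Macrophage markers turned with replicate 1. Of 16 tested, 7 lay above 0 with replicate 1 and 15 without it, with medians of -0.04 and 0.09. Cd52, a surface protein of leukocytes, had 5.66, 8.15, 8.002 and 7.77 on the BICC1_3 arrays, against 7.87, 7.51, 7.84 and 7.74 on the SC arrays. The summed intensity of the 9 defining macrophage markers tested was 16600 to 20000 in BICC1_3, 16600 to 17700 without replicate 1, and 14500 to 17500 in SC. Limma's test called 0 of the 16, and 0 had an unadjusted p under 0.05. The 6 osteoclast markers tested summed to 3760 to 4240 in BICC1_3 and 3900 to 4140 in SC, and the 3 adipocyte markers tested to 1050 to 1130 and 1010 to 1140. Ctsk, at 11.72 in BICC1_3 and 11.74 in SC, made the largest part of the osteoclast sum. The osteoclast markers Calcr, Dcstamp, Ocstamp and Atp6v0d2 were detected on none of the 8 arrays. The same held for the adipocyte markers Adipoq, Fabp4, Plin1 and Lep. These sums thus do not show that either cell type was present. Of 6 skeletal muscle markers tested, Myl1 and Mylpf varied most from array to array in both groups. Myl1, a muscle myosin light chain, had 4.85, 4.76, 7.55 and 8.85 on the BICC1_3 arrays, against 8.03, 8.31, 9.18 and 5.09 on the SC arrays. Acta1, a muscle actin, was steadier, at 10.78, 10.67, 10.60 and 10.64 against 10.34, 10.21, 10.57 and 10.72. Myog, Des and Actn3 averaged 5.73, 5.41 and 5.76 in BICC1_3, and 5.80, 5.46 and 5.76 in SC. Tnnc2, Tnnt3, Myod1 and Ckm did not pass the detection filter.

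Set against the mean of BICC1_1 and BICC1_2, 5 genes or unnamed probes passed, 0.0523% of those tested, 4 higher and 1 lower in BICC1_3. Beside Bicc1 and Hsd3b2 these were Ergic1, Bmp4 and an unnamed probe, ILMN_2866327. Unadjusted p was under 0.05 for 702. Without BICC1_3 replicate 2 the count was 13, and without BICC1_3 replicate 3 or SC replicate 1, 3 or 4 it was 3, and without BICC1_3 replicate 4 it was 2.

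Ergic1, which cycles between endoplasmic reticulum and Golgi, averaged 12.38 with BICC1_3, against 12.33 with BICC1_1, 11.18 with BICC1_2 and 12.29 with SC. The low values behind its difference of 0.62 (limma adjusted p = 0.000239) were the 4 of BICC1_2. The unnamed probe averaged 10.69 with BICC1_3, against 10.34 with BICC1_1, 10.24 with BICC1_2 and 10.75 with SC, so the BICC1_3 mean lay nearest to SC (difference from the other siRNAs 0.40, adjusted p = 0.0395). That call was past the threshold in 7 of 18 alternatives, and it was lost without BICC1_3 replicate 1.

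Bmp4 averaged 8.98 with BICC1_3, against 9.42 with BICC1_1, 9.71 with BICC1_2 and 9.52 with SC. The difference from the other siRNAs was -0.59 (limma adjusted p = 0.0395), while BICC1_3 replicate 2, at 9.38, lay above 1 of the BICC1_1 arrays. The Bmp4 call was past the threshold in 5 of 18 alternatives, and it too was lost without BICC1_3 replicate 1. Hsd3b2 and Bmp4 were thus the 2 genes called in this test whose BICC1_3 arrays also lay wholly outside the SC arrays. Sostdc1 differed from SC by -0.48 with BICC1_3, by -0.23 with BICC1_1 and by 0.09 with BICC1_2, values that share the SC arrays, and Sox9 by 0.44, 0.19 and 0.41. With BICC1_1, Nkd2 differed from SC by -0.48, Col2a1 by -0.43, Ddit4 by -0.39, Dazap1 by -0.30 and Zdhhc18 by 0.47. With BICC1_2 the same genes differed by -0.06, -0.17, -0.12, -0.15 and 0.19. None of these passed limma's test against SC or, for BICC1_3, against the other siRNAs. Besides Sostdc1, whose sign turned with BICC1_2, each gene had the same sign with every siRNA to Bicc1. Nkd2 hardly differed with BICC1_2, and all these values share the SC arrays.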

How the data were processed

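RNA from 16 samples of transfected osteoblasts was hybridised to Illumina MouseRef-8 bead arrays, 4 for each of 4 siRNAs. The table deposited by the authors holds a mean bead intensity per probe on a linear scale, not normalised, per the file headers. The submitters' processing notes name the program GenomeStudio. The deposited detection value is a fraction from 0 to 1, high for bright probes although the file headers call it a p-value, so 1 minus it was used as the detection p. The authors' table of log2 values, identical in quantiles on every array, was deposited with no transform stated in the sources used here and served as an alternative.

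Intensities were normalised with neqc (offset 16) of limma 3.58.1 in R 4.3.3. Of 25697 probes, 12802 had a detection p under 0.05 on at least 4 arrays. The brightest kept probe stood for each gene, giving 9560 genes or unnamed probes, 8832 with a symbol. Symbols came from the platform annotation, which names 1 gene for 23978 probes, several for 0 and none for 1719. Entrez identifiers of 23962 were found in RefSeq (GRCm38.p6), which changed 0 symbols and gave the genomic spans.

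One linear model over the 4 groups (lmFit and eBayes, 12 residual degrees of freedom) gave BICC1_3 minus SC, and BICC1_3 minus the mean of BICC1_1 and BICC1_2. The same model without BICC1_3 replicate 1 was fitted beside it. Tests are two-sided, with Benjamini-Hochberg adjustment over all 9560 and a threshold of 0.05, and the fit was tested on simulated data. Lists were described by counts and medians, without a set test. A group is called separated where its values lie wholly above or below the other's. The genes named were Bicc1, those past the test, the 10 separated genes of lowest p in each direction with and without replicate 1, and up to 4 of the largest differences and the defining members of each list. Cavin1 and S100a8 were named after their values were seen. The comparison, the lists and the genes were chosen with earlier results of these data known. Values shown are normalised log2 intensities, which compare arrays and not genes. The number of arrays limits the precision.

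Alternatives were normexp with quantile normalisation, median scaling, the authors' table, other detection filters, other sets of arrays, array weights, a replicate block and every kept probe. Replicate numbers are not said to mark a shared culture.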

Additional observations from a re-analysis of the deposited data

Results flagged for a closer look

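Values that lie far from the rest of their group by Dixon's criterion were found 25 times among 222 groups of 4 arrays, 18 of them on BICC1_3 replicate 1. Chance gives about 1 in 20 groups where these are independent and not selected. The genes here were partly chosen from the same data and all groups share the same arrays, so that rate is no standard for this count. On BICC1_3 replicate 1, Ago2 was 9.076 (others 8.41 to 8.486), Bicc1 10.7 (10.33 to 10.39) and Cdkn1a 13.7 (13.54 to 13.55), all higher than the other 3 BICC1_3 arrays, and Eif2ak2 was 9.219 (9.601 to 9.647), lower. The macrophage genes Cd52 and Tyrobp were 5.661 (7.772 to 8.149) and 5.791 (7.387 to 7.635). Egfl7 was 7.96 (8.511 to 8.614), Id1 10.42 (11.05 to 11.15), Ndufa5 10.07 (12.11 to 12.31) and Tspo 10.95 (11.7 to 11.83), all lower.

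List medians on BICC1_3 replicate 1, relative to the SC mean, were -1.44 for complex I, -1.19 for complexes II to IV, -1.28 for ATP synthase, -0.756 for cytoplasmic and -0.638 for mitochondrial ribosomal proteins. They were 0.255 for actin, smooth muscle and YAP targets, 0.185 for collagen and matrix and 0.0952 for Bicc1 and polycystin partners. On other arrays, Tnfrsf10b was 8.757 on BICC1_3 replicate 3 (others 8.217 to 8.263), and the proliferation median was -0.155 on BICC1_3 replicate 2 (others -0.0317 to -0.0273). Among SC arrays, Elp2 was 11.2 on replicate 3 (others 11.12 to 11.13), Isg15 8.336 on replicate 2 (7.142 to 7.336) and Wnt4 6.265 on replicate 4 (6.495 to 6.517). The osteoclast median was 0.0413 on SC replicate 4, and the mitochondrial ribosomal median -0.0235 on SC replicate 2.

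Differences between siRNAs to the same gene were tested in limma's model as BICC1_3 minus the mean of BICC1_1 and BICC1_2. They passed for Bicc1 (1.14), Ergic1 (0.619), Hsd3b2 (0.444), the unnamed probe ILMN_2866327 (0.399) and Bmp4 (-0.587).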

How the results depend on the processing

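Against SC, limma's test called 1 gene, and 18 alternatives gave 0 to 14. Median scaling, a fit of only the arrays compared and leaving out the 3 arrays that stand apart gave 0 each. In those fits 481, 728 and 1108 genes had an unadjusted p under 0.05. The 3 arrays were BICC1_3 replicate 1, BICC1_1 replicate 3 and BICC1_2 replicate 3. With the authors' log2 values 2 genes passed, and with array quality weights 14. A replicate block gave 4 (Hsd3b2, Usp9x, Zdhhc18 and Setd2). Deviations of same-numbered BICC1_3 and SC arrays from their group means correlated at -0.165 to 0.0582. The BICC1_3 mean includes replicate 1, so these correlations cannot settle whether the numbers mark pairs. Because the labels do not tie the numbers to a shared culture, the block served as an alternative only. Leaving out 1 array at a time gave 0 to 12. Without BICC1_3 replicate 1, the 1 call became 0 under median scaling, with only the arrays compared, with every kept probe and without the 3 arrays (352, 1086, 954 and 1108 unadjusted), 2 with the authors' values and 0 to 1 with 1 further array left out. The replicate block gave 1 there as well, Usp9x in place of Hsd3b2. Against BICC1_1 and BICC1_2 the 5 calls became 1 under median scaling, 3 with only the arrays compared, 3 with every kept probe, 8 with array weights and 2 to 13 with 1 array left out, and 4 with the replicate block. In 11 of 18 alternatives Hsd3b2 passed against SC, with a difference of 0.49 to 0.58 and an adjusted p of 0.00136 to 0.21. For Bicc1 the difference was -0.18 to -0.06, past the threshold in 0 of 18. The causes of these shifts were not tested. A slide effect was not run, since the files used here name no slide. With signals near background, differences of dim probes are the least certain.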
